A study of Homo sapiens with 2 samples.

Results

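The genes described here are 10 proteoglycan core proteins, SRGN, VCAN, ACAN, DCN, BGN, LUM, HSPG2, AGRN, SPOCK1 and CSPG4, among 57820 genes listed in the RNA-seq tables of 2 human liver cancer cell lines. They were taken by gene symbol from a list of matrix and granule proteoglycans, and all 10 were found in both tables. The tables came from unmodified SKHEP1 cells, labelled as endothelial cells, and unmodified HepG2 cells, labelled as hepatocellular carcinoma. Both lines carry the genotype label WT, were grown in the same serum-containing medium with antibiotics, and are represented by 1 library each. No drug treatment or gene perturbation is given for either library. The series as a whole concerns PURPL, a long noncoding RNA linked to p53, and proteoglycans are not among its stated aims.

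A proteoglycan is a core protein that carries long sulfated sugar chains, the glycosaminoglycans, which are built in the Golgi on serines that are mostly followed by glycine. Chondroitin, dermatan and heparan sulfate share the same short linker at the serine, and keratan sulfate is attached differently. The cores fall into classes by place. Serglycin (SRGN) is packed into secretory granules and can be secreted, versican (VCAN) and aggrecan (ACAN) bind hyaluronan and fill the matrix, and decorin (DCN), biglycan (BGN) and lumican (LUM) are small leucine-rich proteins that bind collagen. Perlecan (HSPG2) and agrin (AGRN) sit in basement membranes, testican-1 (SPOCK1) is a secreted relative of SPARC, and CSPG4, also called NG2, spans the cell membrane and marks pericytes.

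The coding sequences show how differently these cores present such sites, and a stretch is shown for 7 of the members. Those of SRGN, ACAN and AGRN hold each gene's longest back-to-back run of serine-glycine codon pairs, and those of HSPG2, BGN, DCN and SPOCK1, which have no such run, hold pairs close to an end of the coding sequence. They were read from GENCODE 29 on GRCh38, from the longest coding sequence of each gene, 5′ to 3′ in frame. Capitals mark in-frame serine-glycine pairs, searched on the coding strand. The codon pairs sought were TCNGGN, in which serine has a TCN codon, and both AGCGGN for the codon AGC and AGTGGN for the codon AGT.
SRGN: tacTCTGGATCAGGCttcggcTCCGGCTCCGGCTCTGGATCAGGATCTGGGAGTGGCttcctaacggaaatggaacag
ACAN: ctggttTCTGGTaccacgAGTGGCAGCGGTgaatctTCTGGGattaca
AGRN: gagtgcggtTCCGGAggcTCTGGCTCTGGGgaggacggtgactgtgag
HSPG2: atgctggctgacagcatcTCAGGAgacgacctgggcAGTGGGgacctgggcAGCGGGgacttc
BGN: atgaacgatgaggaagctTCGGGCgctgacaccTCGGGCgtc
DCN: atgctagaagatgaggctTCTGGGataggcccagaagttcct
SPOCK1: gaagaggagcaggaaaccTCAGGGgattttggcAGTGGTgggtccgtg

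The SRGN stretch lies within a single exon at chr10:69103920-69103997 on the plus strand and holds codons 93 to 118. All 8 serine-glycine pairs of the 158-codon SRGN sequence fall inside it, and 6 of them follow each other without a break. Among 19489 coding genes searched in the same way, SRGN was the single gene with a run of 6 or more. ACAN had the most pairs, 163 in 2568 codons, but its longest run was 2, as was that of AGRN. A run of at least 2 was found in 3.17% of the coding genes and at least 1 pair in 82% of them, so that a single pair is common. The ACAN stretch is at chr15:88858028-88858075 and the AGRN stretch at chr1:1044111-1044158, both on the plus strand. HSPG2 had 53 pairs in 4391 codons, and the 3 shown, in codons 59 to 79, lie near the start of the protein, on the minus strand of chromosome 1. BGN showed 2 pairs close together in codons 36 to 49, at chrX:153504737-153504778 on the plus strand, in the part known to carry its chains. DCN showed 1 in codons 28 to 41, at chr12:91178430-91178471 on the minus strand, in the part known to carry its single chain. In SPOCK1 both pairs of the 439-codon sequence were in codons 377 to 392, near the end of the protein, on the minus strand of chromosome 5. The HSPG2 and SPOCK1 stretches are each divided by an intron in the genome. VCAN had 28 pairs in 3396 codons, CSPG4 12 in 2322 and LUM 3 in 338, none of them back to back. A pair is a match to these letters and not a measured attachment site.

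**Figure D1:**
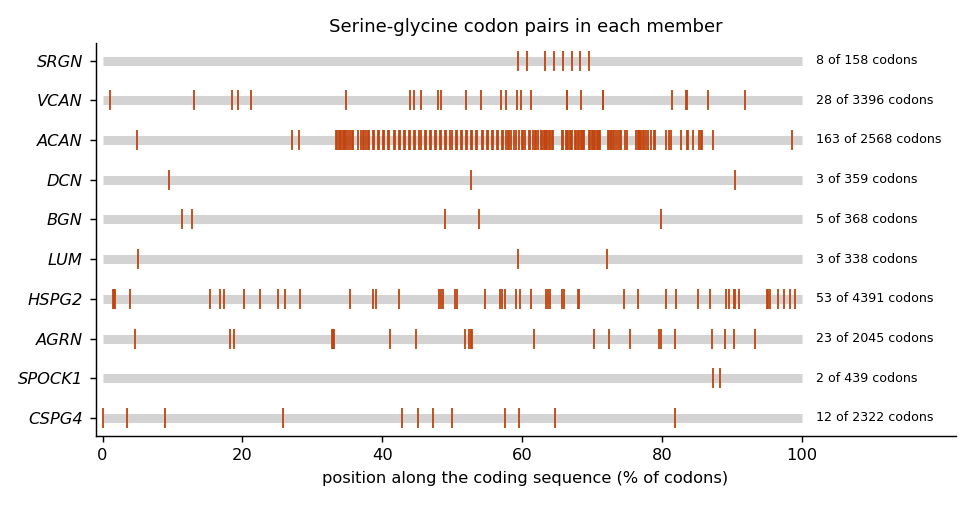
Position of serine-glycine codon pairs (red ticks) along the longest coding sequence of each member, as percent of its codons, with the number of pairs and of codons at the right. The 8 pairs of SRGN form 1 tight block, while the 163 pairs of ACAN spread over the middle and later part of its sequence.

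The SKHEP1 library held 19940557 expected counts, that is, reads per gene as estimated by RSEM, and the HepG2 library 22477757. Genes with at least 10 expected counts in either library were compared, which gave 15436 genes. Ratios are SKHEP1 over HepG2 of counts scaled to counts-per-million (CPM), and levels are also given as transcripts-per-million (TPM), which correct for gene length. For log2 ratios, list medians and 4-fold limits, a library's count under 3 was raised to a floor of 3 counts, 0.148 CPM in SKHEP1 and 0.135 CPM in HepG2. A printed fold is a bound against that floor where the lower library had 0 counts, and is the ratio of the counts themselves, with its interval, where it had 1 or 2. Intervals are exact at 95% and cover counting error only, since with 1 library per line no difference could be tested. Reads amplified by PCR and not tagged with molecular identifiers do not count independent molecules, and these intervals may be too narrow. The cell type labels were checked against fixed markers. All 8 hepatocyte markers were at least 4-fold higher in HepG2, and 7 of them were at 0 counts in SKHEP1. Of 10 endothelial markers, 4 did not reach 10 counts in either line, 3 passed 4-fold towards SKHEP1 and 1 towards HepG2. The 3 were ENG, given below, ROBO4, with 343 counts in SKHEP1 against 4 in HepG2, and EGFL7, with 178 against 5. The defining receptor KDR and the junction gene CLDN5 were at 0 counts in both lines. The endothelial label of SKHEP1 was therefore borne out only in part by these markers. The VE-cadherin gene CDH5 had 1 count in SKHEP1 against 5 in HepG2, while ENG, the endoglin gene, had 1926 counts in SKHEP1 against 18 in HepG2. The summed TPM of the 10 endothelial markers was 78.4 in SKHEP1, where ENG alone gave 53.3, and 7.96 in HepG2, where the marker ESAM gave 6.29.

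Most of the proteoglycan genes that were expressed at all were higher in SKHEP1. Of the 10 members, 8 reached the count minimum in at least 1 line. Of these 8, SRGN, SPOCK1, LUM, CSPG4 and VCAN were at least 4-fold higher in SKHEP1, while HSPG2, BGN and AGRN lay within 4-fold and none was at least 4-fold higher in HepG2. Among all 15436 genes compared, 16.5% passed the same 4-fold limit towards SKHEP1 and 13.0% passed it towards HepG2. The median log2 ratio of the 8 members was 3.51, against 0.03 for all genes compared, and was 3.80 with the floor used at 0 counts only, since CSPG4 had 2 counts in HepG2. DCN and ACAN had 0 counts in both lines. In SKHEP1 8 of the 10 members reached 10 counts, and in HepG2 4 did, while of all 57820 genes 13831 reached it in SKHEP1 and 13405 did so in HepG2.

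**Figure D2:**
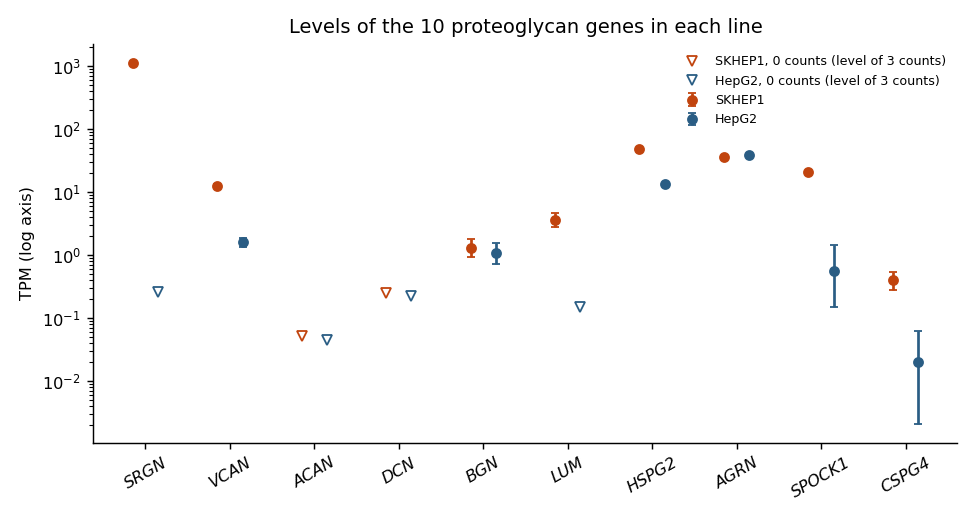
Level of each of the 10 members in TPM (log axis) in SKHEP1 (red) and HepG2 (blue), with 95% counting intervals. Open triangles mark the level that 3 counts would give where a library had 0, which applies to DCN and ACAN in both lines and to SRGN and LUM in HepG2.

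SRGN was the member that set SKHEP1 apart by level. Serglycin is best known from mast cells, lymphocytes and platelets, where it holds charged cargo in granules, and endothelial and tumour cells are also known to make it. SRGN (ENSG00000122862.4) had 14411 counts in SKHEP1 against 0 in HepG2. Its level was 713 CPM, or 1127 TPM, in SKHEP1, and its count of 0 in HepG2 lies under the level that 3 counts would give there, 0.257 TPM. Against the floor it was at least 5274-fold higher in SKHEP1, and the exact lower limit of the ratio was 4289. By TPM it ranked 144 among all genes in SKHEP1. Of 3171 genes with 0 counts in HepG2 and a TPM above 0 in SKHEP1, none had a higher TPM in SKHEP1 than SRGN. The genes of most like pattern were the next in that order. These were the glutathione transferase GSTP1 at 397 TPM and FXYD5, a regulator of the sodium pump, at 314 TPM in SKHEP1. That order leaves out genes with any counts in HepG2, some of them above SRGN by TPM in SKHEP1. Among these, VIM had 6798 TPM in SKHEP1 with 2 counts in HepG2, and CD44 had 1468 TPM in SKHEP1 with 6 counts in HepG2.

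The granule proteins that serglycin stores in blood cells were not detected beside it in SKHEP1. Of 13 listed cargo genes, among them the granzyme GZMB, the neutrophil elastase gene ELANE, the mast cell tryptase gene TPSAB1 and the platelet factor PF4, 12 were at 0 counts in SKHEP1 and CPA3 had 1. In HepG2 11 were at 0, and perforin (PRF1) reached 11 counts. Of 8 blood cell markers, PTPRC, the pan-leukocyte CD45 gene, had 5 counts in SKHEP1 against 0 in HepG2, and CD3E and HBB were at 0 in both. KIT, the stem cell factor receptor found on mast cells, had 57 counts in SKHEP1 against 0 in HepG2. Against the floor KIT was at least 20.9-fold higher in SKHEP1, with an exact lower limit of 16.4. ITGA2B, a platelet integrin gene, had 9 counts in SKHEP1 against 1 in HepG2. The part of these markers in the SRGN result was not tested. The summed TPM of these 8 markers was 3.73 in SKHEP1, against 2023 in HepG2, where lysozyme (LYZ) alone gave 2020.

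SRGN also set the make-up of the whole group. The summed TPM of the 10 members was 1250 in SKHEP1 and 55.2 in HepG2, and SRGN gave 90.1% of the SKHEP1 sum. Without SRGN the other 9 members summed to 123 TPM in SKHEP1, against 55.2 TPM in HepG2. AGRN and HSPG2 together gave 6.8% of the sum in SKHEP1 and 94.1% in HepG2. With SRGN left out they gave 68.9% in SKHEP1 and 94.1% in HepG2. By TPM the order in SKHEP1 was SRGN, HSPG2, AGRN, SPOCK1, VCAN, LUM, BGN and CSPG4, and the counting intervals of neighbours in that order did not overlap. In HepG2 the order was AGRN, HSPG2, VCAN, BGN, SPOCK1 and CSPG4, and the intervals of VCAN and BGN overlapped, as did those of BGN and SPOCK1.

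**Figure D3:**
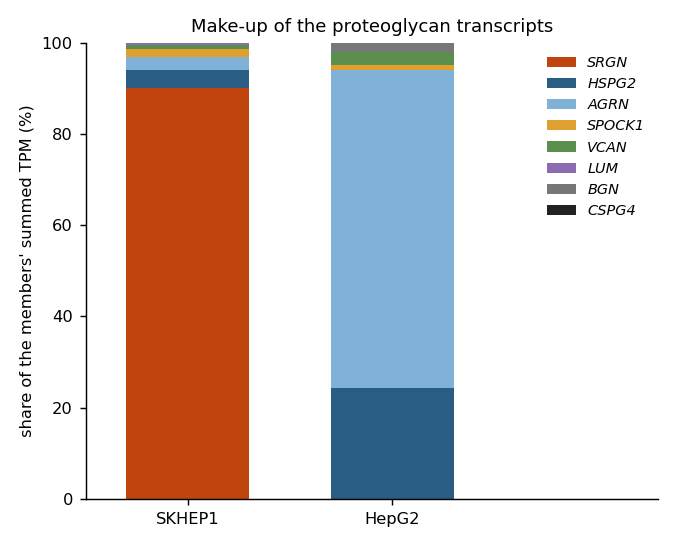
Share of each member in the summed TPM of the 10 members, in percent, in SKHEP1 (left) and HepG2 (right). SRGN fills 90.1% of the SKHEP1 bar and is absent from the HepG2 bar, where AGRN takes 69.7% and HSPG2 24.4%.

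The 2 basement membrane proteoglycans had the highest levels of the members other than SRGN in both lines, in opposite order. Perlecan, with heparan sulfate chains at its start, links laminin and nidogen and stores growth factors, and agrin gathers receptors at the nerve-muscle junction and is also made outside it. HSPG2 (ENSG00000142798.12) had 5192 counts in SKHEP1 against 1751 in HepG2, that is, 257 CPM in SKHEP1 and 78.9 CPM in HepG2. It was 3.26-fold higher in SKHEP1, with an interval of 3.08 to 3.44, short of 4-fold. AGRN (ENSG00000188157.9) had 2227 counts in SKHEP1 against 2533 in HepG2, and its ratio was 0.97 with an interval of 0.91 to 1.02. Its deposited counts were not whole, as happens where RSEM divides reads between genes. In TPM, HSPG2 stood at 49.0 in SKHEP1 and 13.5 in HepG2, and AGRN at 36.0 in SKHEP1 and 38.5 in HepG2. The HSPG2 over AGRN ratio of TPM was therefore 1.36 in SKHEP1 and 0.35 in HepG2.

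Of the aggregating pair, versican was present in both lines and aggrecan in neither. Versican is a provisional matrix component of growing and injured tissue, and aggrecan is the load-bearing proteoglycan of cartilage. VCAN (ENSG00000038427.11) had 1305 counts in SKHEP1 against 166 in HepG2, at 12.5 TPM in SKHEP1 and 1.59 TPM in HepG2. It was 8.63-fold higher in SKHEP1, with an interval of 7.34 to 10.2. ACAN (ENSG00000157766.11) had 0 counts in both, and 3 counts would have been 0.0519 TPM in SKHEP1 and 0.0457 TPM in HepG2. Versican is spliced into forms with long or short chain-bearing parts. The deposited gene length, an average over transcripts weighted by their estimated shares, was 8372 bases in SKHEP1 and 7414 in HepG2 over 12 transcripts. Of 9193 genes with at least 100 counts in both lines, 84.8% differed less in this length between the lines. The tables do not give the share of each transcript, and the HepG2 value rests on 166 counts.

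The promoters of this pair are shown because 1 gene was read in both lines and the other in neither. RefSeq promoter sequences on GRCh38.p14 were matched for 5 members, and the 250 bases before the start are given, with CG dinucleotides in capitals. The VCAN window is chr5:83471494-83471743 and the ACAN window chr15:88803186-88803435, both on the plus strand.
VCAN: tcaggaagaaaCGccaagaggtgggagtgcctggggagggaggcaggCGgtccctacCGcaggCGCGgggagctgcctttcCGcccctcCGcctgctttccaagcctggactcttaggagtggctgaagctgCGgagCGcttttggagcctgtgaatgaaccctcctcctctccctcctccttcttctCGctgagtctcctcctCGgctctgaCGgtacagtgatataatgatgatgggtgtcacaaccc
ACAN: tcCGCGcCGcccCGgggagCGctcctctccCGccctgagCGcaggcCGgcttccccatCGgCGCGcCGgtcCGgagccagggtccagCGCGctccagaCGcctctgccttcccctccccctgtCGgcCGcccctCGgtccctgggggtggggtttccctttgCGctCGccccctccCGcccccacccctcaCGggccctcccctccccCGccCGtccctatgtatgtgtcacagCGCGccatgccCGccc

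The VCAN window held 12 CG dinucleotides and the ACAN window 28, against a median of 11 over 35116 promoter windows of the same length. As many as in VCAN were found in 48.5% of the windows and as many as in ACAN in 15.9%. The HSPG2 window held 33, BGN 16 and CSPG4 14. The letters GGGCGG, the core of a GC box, were found on either strand 1 time in VCAN, 6 in ACAN, 8 in HSPG2, 5 in BGN and 1 in CSPG4, and at least once in 42.6% of all windows. TATAAA was in none of these 5 windows on either strand and in 10.7% of all. ACAN, at 0 counts in both lines, had more CG dinucleotides than VCAN, and HSPG2, present in both lines, had the most of the 5.

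The 3 small leucine-rich members were absent or low. Decorin, biglycan and lumican are abundant products of fibroblasts and stellate cells and regulate collagen fibrils. DCN (ENSG00000011465.12) had 0 counts in both lines, where 3 counts would have been 0.253 TPM in SKHEP1 and 0.223 TPM in HepG2. LUM (ENSG00000139329.4) had 69 counts in SKHEP1, at 3.62 TPM, against 0 in HepG2, and was at least 25.2-fold higher in SKHEP1, with an exact lower limit of 20.0. Its level in SKHEP1 was exceeded by 488 of the 3171 genes with 0 counts in HepG2, and the genes of most like pattern were PLCXD3, PRDM8, MCIDAS and GABPB2, between 3.57 and 3.66 TPM in SKHEP1. BGN (ENSG00000182492.11) had 37 counts in SKHEP1 against 30 in HepG2, at 1.32 TPM in SKHEP1 and 1.08 TPM in HepG2. Its ratio of 1.35 had an interval of 0.81 to 2.27, so that no difference in BGN was detectable at this depth. BGN overlaps HAUS7 on the opposite strand, which had 509 counts in SKHEP1 against 368 in HepG2, and the low BGN values are uncertain, since no source used here gives the strand setting of the counting.

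SPOCK1 and CSPG4 were close to undetected in HepG2. Testican-1 carries chondroitin and heparan sulfate and is studied for its part in tumour cell invasion. SPOCK1 (ENSG00000152377.8) had 855 counts in SKHEP1 against 4 in HepG2, at 42.3 CPM in SKHEP1 and 0.18 CPM in HepG2. It was 235-fold higher in SKHEP1, with an interval of 91.3 to 863. From the deposited TPM values, 20.4 in SKHEP1 and 0.56 in HepG2, the ratio was 36.5. The effective gene length, by which TPM divides the counts, was 3283 bases in SKHEP1 and 496 bases in HepG2. The HepG2 length rests on 4 counts. CSPG4 (ENSG00000173546.7) had 41 counts in SKHEP1 against 2 in HepG2, and the ratio was 22.5 (interval from 5.85 to 192). At 0.40 TPM in SKHEP1 it was the lowest of the members detected there. It has near copies, and 7 listed CSPG4 pseudogenes held 128 counts in SKHEP1 against 62 in HepG2, more than CSPG4 itself, so its counts are uncertain.

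**Figure D4:**
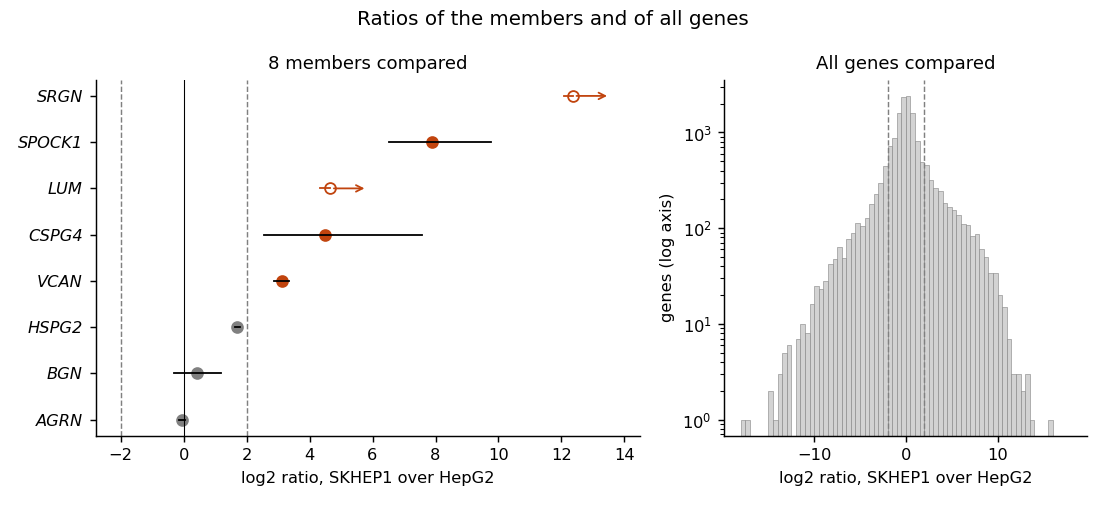
Left, log2 ratio of SKHEP1 over HepG2 for the 8 members compared, with 95% counting intervals (bars), 4-fold limits (dashed) and bounds for genes with 0 counts in HepG2 (open circles with arrows); red marks ratios past the limit, and CSPG4 is drawn at the ratio of its counts. Right, the same ratio for all 15436 genes compared (log axis): 16.5% lie past the upper limit, as do 5 of the 8 members.

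Other cores showed no single direction. Of 14 further small leucine-rich genes, 11 did not reach 10 counts in either line, among them the fibromodulin gene FMOD and OGN, and 2 of the 3 others were at least 4-fold higher in SKHEP1. These 2 were near the count minimum, PRELP at 11 counts in SKHEP1 against 0 in HepG2 and PODNL1 at 14 against 2. The lower limits of their ratios, 2.76 for PRELP and 1.765 for PODNL1, fell short of 4-fold. TSKU, which encodes tsukushi, was 2.59-fold higher in HepG2, with 405 counts in SKHEP1 against 1151 in HepG2. Of 12 compared among 24 other cores, part-time proteoglycans and relatives of testican, 5 passed the 4-fold limit towards SKHEP1 and 4 towards HepG2. The list's median log2 ratio was 0.66. Among all genes compared, 16.5% passed the limit towards SKHEP1 and 13.0% towards HepG2. SPARC, a secreted matrix protein related to SPOCK1, had 64080 counts in SKHEP1 against 1469 in HepG2, and was 47.9-fold higher in SKHEP1. The testican gene SPOCK2 went the other way from SPOCK1, with 0 counts in SKHEP1 against 244 in HepG2, and SMOC1, another relative, had 0 counts in SKHEP1 against 1119 in HepG2. Against the floor, SMOC1 was at least 340-fold higher in HepG2 and SPOCK2 at least 74.1-fold, with exact lower limits of 276 for SMOC1 and 59.8 for SPOCK2.

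Most of the genes for building the sulfated chains lay within 4-fold between the lines. Of 7 linker genes, 6 were compared, and all 6 stayed inside the 4-fold limits around a median log2 ratio of 0.11. The xylosyltransferase XYLT2, which attaches the first sugar, had 558 counts in SKHEP1 against 456 in HepG2, while its partner XYLT1 was at 0 in both. The linker kinase FAM20B had 2156 counts in SKHEP1 against 1956 in HepG2. Of 16 chondroitin and dermatan sulfate genes, 4 passed the 4-fold limit towards SKHEP1 and 2 towards HepG2, and the median log2 ratio of the 16 was 0.53. The chondroitin 4-O-sulfotransferase CHST11 had 770 counts in SKHEP1 against 0 in HepG2. Against the floor it was at least 282-fold higher in SKHEP1, with an exact lower limit of 229. CHST13, which places sulfate at the same position, had 1 count in SKHEP1 and 412 in HepG2, 375-fold higher in HepG2 with an interval of 67.0 to 14860. UST, the uronyl 2-O-sulfotransferase, had 253 counts in SKHEP1 against 1 in HepG2. DSEL, a relative of the dermatan sulfate epimerase, had 556 counts in SKHEP1 against 6 in HepG2.

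Of 23 heparan sulfate genes listed, 15 were compared, with a median log2 ratio of -0.23. Of these 15, 3 passed the 4-fold limit towards SKHEP1, 4 passed it towards HepG2 and 8 lay inside it. Among all 15436 genes compared, 10885 lay inside it, 16.5% passed it towards SKHEP1 and 13.0% towards HepG2. The 6-O-sulfotransferase HS6ST1 was 17.8-fold higher in HepG2, with 234 counts in SKHEP1 against 4573 in HepG2. The 3-O-sulfotransferase HS3ST3B1 had 1 count in SKHEP1 and 1456 in HepG2. SULF2, which removes 6-O-sulfate outside the cell, was 35.2-fold higher in HepG2, with 58 counts in SKHEP1 against 2239 in HepG2. The polymerase gene EXT1 was the highest of the list by TPM in SKHEP1, at 177 TPM in SKHEP1 and 28.0 TPM in HepG2.

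By the 4-fold limit, binding partners of the members, both matrix proteins and receptors, were more often higher in SKHEP1 than in HepG2. Of 15 compared among 20 listed, 7 passed the 4-fold limit towards SKHEP1 and none towards HepG2, and their median log2 ratio was 1.95. Of all genes compared, 16.5% passed it towards SKHEP1 and 13.0% towards HepG2. The partner genes NID1, DAG1 and LRP4 went the other way inside the limit, at 3.22-fold, 2.05-fold and 2.2-fold higher in HepG2. The summed TPM of the 20 listed was 2533 in SKHEP1 and 3362 in HepG2. COL4A1 and COL4A2, the basement membrane collagen chains found with perlecan, had 2005 and 3996 counts in SKHEP1, against 0 and 2 in HepG2. COL3A1, a fibrillar collagen, had 5765 counts in SKHEP1 against 0 in HepG2. FN1, which encodes fibronectin, was the highest partner by TPM in HepG2, at 755 TPM in SKHEP1 and 2670 TPM in HepG2. Of 10 mesenchymal markers, which include collagen genes of this list, 7 were compared, and 5 passed the limit towards SKHEP1 and none towards HepG2. The other 2 compared, PDGFRB and ACTA2, lay inside the limit, at 1.62-fold and 1.33-fold higher in HepG2. The summed TPM of the 10 mesenchymal markers was 7043 in SKHEP1, mostly VIM at 6798, and 62.7 in HepG2, and DES was at 0 in both. The part of these marker genes in the proteoglycan result was not tested. In a bulk library, fewer cells with a transcript and less of it per cell cannot be told apart.

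**Figure D5:**
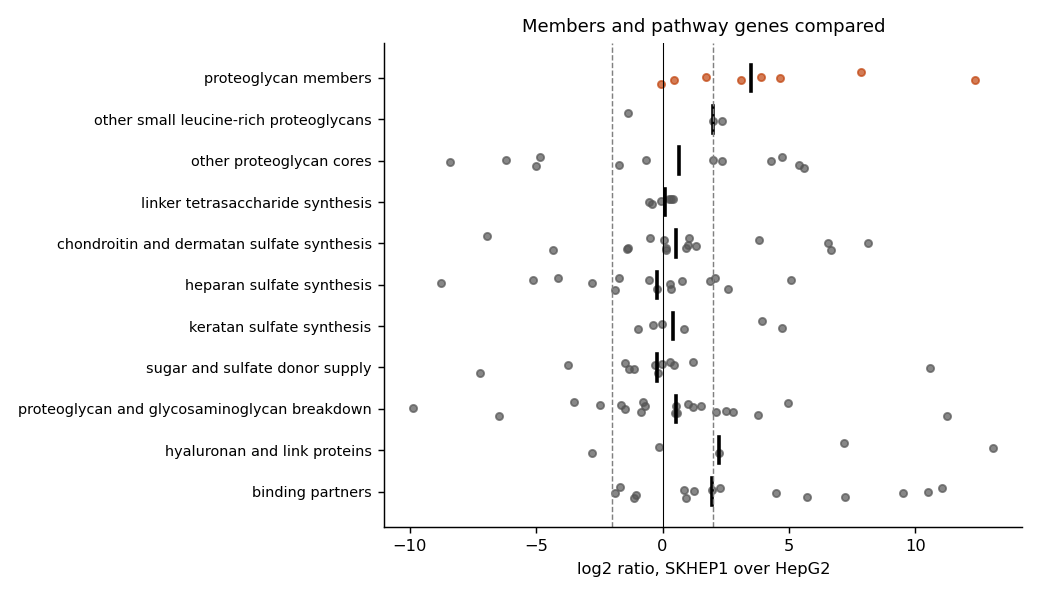
Log2 ratio of SKHEP1 over HepG2 for each gene compared (points, with counts under 3 raised to 3) in the members (red) and 10 pathway lists (grey), with list medians (black bars) and 4-fold limits (dashed). The members have a median of 3.51, and the linker genes lie closest to 0, with a median of 0.11 and all 6 genes within 4-fold.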

How the data were processed

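Stranded mRNA libraries were made from column-purified RNA, per the labels' protocols. Per the submitters' processing notes, cutadapt, STAR, RSEM and DESeq2 were used with the hg19 build. Not given in the sources used here are tool versions, the annotation and the strand setting. Per the file headers, the authors deposited RSEM gene tables with expected counts, TPM, FPKM and isoform-weighted gene lengths (other columns).

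Expected counts were rounded and scaled by TMM with edgeR 4.0.16 in R 4.3.3, with factors of 1.01 for SKHEP1 and 0.99 for HepG2. Levels carry exact Poisson intervals and ratios exact conditional Clopper-Pearson intervals, both at 95%. No test was made, since each line has 1 library. Sequences came from GENCODE 29 and RefSeq on GRCh38, another build than the files' hg19, so no coordinates were joined to counts. Calculations used Python 3.11.15.

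The members, 11 pathway lists and 4 marker lists were chosen with earlier results of these data known, from textbook knowledge. Genes were named by rule: all members, and per pathway list the 3 with the largest log2 ratio, counts under 3 raised to 3, at 100 or more counts and the highest by TPM in each line; not all of these are reported. FMOD, OGN, XYLT1, UST, PAPSS1, HAPLN1, HAPLN3, GZMB, ELANE, TPSAB1 and PF4 were named outside the rule after their values were seen, as was HAUS7 for its overlap. So were PRELP, PODNL1, NID1, DAG1 and LRP4, for their values. Alternatives were total counts, DESeq2 1.42.0 size factors, TPM, FPKM, count minimums of 50 and 1, a prior count of 2, thinning of the deeper library, other fold limits, the lower bound of the ratio and, added later, a floor at 0 counts only.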

Additional observations from a re-analysis of the deposited data

How the results depend on the processing

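No paired analysis was possible because each line has 1 library, and no replicate could be left out. The count of 5 members at least 4-fold higher in SKHEP1 stayed between 4 and 6 under 12 alternatives, of which a floor at 0 counts only was chosen after seeing the data, and no member was at least 4-fold higher in HepG2 under any of them. It was 6, with HSPG2, at a 2-fold limit, and 4 with a minimum of 50 counts, which leaves out CSPG4 and BGN. For all genes, a 2-fold limit gave 3859 higher in SKHEP1 and 3614 in HepG2, and an 8-fold limit gave 1258 in HepG2. The median log2 ratio of the compared members lay between 3.33 and 3.88 under 9 alternatives, and the mean was 4.25. Only HSPG2 and SPOCK1 left their counting interval: HSPG2 had a log2 ratio of 1.70, or 1.86 from TPM and 1.85 from FPKM, and SPOCK1 7.87, or 5.19 from TPM and 5.18 from FPKM. The ratio of the summed levels was 22.7 from TPM and 22.5 from FPKM. Values under about 10 counts, such as SPOCK1 and CSPG4 in HepG2, are limited by depth.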

Other observations

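Genes for the supply of sugar and sulfate donors lay mostly within 4-fold, as did 10885 of all 15436 genes compared. Of the 12 genes, 1 passed the limit towards SKHEP1 and 2 towards HepG2, around a median log2 ratio of -0.23. PAPSS2, a synthase of the sulfate donor PAPS, had 4255 counts in SKHEP1 against 3 in HepG2, and the ratio was 1557 (interval from 532.5 to 7554). Its partner PAPSS1 had 869 counts in SKHEP1 against 2105 in HepG2. UGDH, which makes the glucuronic acid donor, was 13.3-fold higher in HepG2, with 839 counts in SKHEP1 against 12256 in HepG2, and the sulfate transporter SLC26A1 had 2 counts in SKHEP1 against 494 in HepG2. Of 6 keratan sulfate genes compared among 9, 2 passed the 4-fold limit towards SKHEP1 and none towards HepG2, around a median log2 ratio of 0.42, and B4GALT1 was the highest by TPM in both lines, at 74.5 TPM in SKHEP1 and 39.8 TPM in HepG2.

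Of 24 genes for breakdown, 21 were compared, around a median log2 ratio of 0.52. Of these 21, 6 passed the 4-fold limit towards SKHEP1, 4 passed it towards HepG2 and 11 lay inside it. For all genes compared, the shares past the limit were 16.5% towards SKHEP1 and 13.0% towards HepG2. ADAMTS1, a protease that cleaves versican and aggrecan, had 8819 counts in SKHEP1 against 4 in HepG2, and the ratio was 2421 (interval from 945.1 to 8886). The hyaluronidase HYAL1 had 2 counts in SKHEP1 against 3074 in HepG2, and CEMIP, a hyaluronan-binding protein needed for its breakdown, listed as KIAA1199, was 88.4-fold higher in HepG2. Of 5 compared among 13 hyaluronan and link genes, 3 passed the limit towards SKHEP1 and 1 towards HepG2, around a median log2 ratio of 2.25, or 3.84 with the floor used at 0 counts only. The median gene is HAPLN3, with 13 counts in SKHEP1 against 1 in HepG2. The hyaluronan synthase HAS3 had 2784 counts in SKHEP1 against 21 in HepG2, and the link protein gene HAPLN1, whose product ties versican and aggrecan to hyaluronan, was at 0 in both.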
